A study of Mus musculus with 12 samples.

Results

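Chemokine receptors and dendritic cell (DC) homing chemokines were followed in mouse bone marrow-derived DCs (BMDCs) with and without CTCF, before and after lipopolysaccharide (LPS). The set holds 9 genes, 6 receptors (Ccr1, Ccr2, Ccr7, Ccrl2, Cxcr4 and Cx3cr1) and 3 ligands (Ccl17, Ccl22 and Cx3cl1), picked by gene symbol out of 55335 annotated genes. All 9 passed the filter on low counts that left 14008 genes for testing. Bone marrow of CreER mice (WT) or CreER;CTCF fl/fl mice (KO), all on the C57BL/6 strain, was cultured for 6 days with GM-CSF, and part of each genotype then received LPS at 100 ng/ml for 3 h (WTL and KOL). Each of the 4 groups held 3 libraries that the study describes as biological replicates. Per the study's methods the mice were 8 to 12 weeks old, of both sexes, with age- and sex-matched littermates as controls, and floating CD11c+ cells were kept. CreER was expressed from the Rosa26 locus in WT as well as KO cells, and Ctcf was deleted with 4-OH tamoxifen, which activates CreER, given at 0.5 µM on day 1. The study's wording, that it was used to delete Ctcf in KO but not in WT cells, leaves unclear whether WT cultures received it. If they did not, its own effect and that of the deletion cannot be told apart. The deletion was thus induced at the start of the culture, and KO cells went through differentiation with it.

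Chemokine receptors are G protein-coupled receptors that steer leukocytes along gradients of small secreted chemokines. An immature DC in tissue carries receptors for inflammatory chemokines such as CCR1 and CCR2, and on maturation it takes up CCR7, which leads it through lymphatic vessels to the T cell zone of lymph nodes, where CCL17 and CCL22 attract T cells that bear CCR4. CTCF is a DNA-binding protein that halts cohesin-driven loop extrusion and so bounds chromatin domains and loops.

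The libraries held between 12769773 and 16586334 expected counts on annotated genes. Ctcf itself, given as counts scaled to a common library size (normalized counts), stood at 1051, 987 and 975 in WT, at 886, 817 and 745 in WTL, at 570, 562 and 516 in KO and at 564, 530 and 526 in KOL. KO libraries thus kept 54.7% of the WT level of a whole-gene count, which does not separate deleted from retained exons. The second WTL library had 4.65% of its counts on ribosomal RNA genes against 0.134% to 0.636% in the other 11, and replicates spread more after LPS, with a biological coefficient of variation of 13.7% in WTL and 14.4% in KOL against 4.93% in WT and 2.62% in KO.

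Cell type markers were read as summed TPM, a level scaled to transcript length and to the library. The 9 conventional DC markers (among them Itgax, H2-Aa, Cd74 and Zbtb46) summed to 10530 to 11100 TPM in WT, 10250 to 14110 in WTL, 7225 to 7533 in KO and 10460 to 15150 in KOL. Nearly all of this sum was Cd74, H2-Aa and H2-Ab1. Itgax, which encodes CD11c, went the other way in KO against WT (log2 fold change 0.83, adjusted p = 1.29e-06), and Zbtb46, a transcription factor of conventional DCs, was not called there (−0.16, adjusted p = 0.198). Flt3, another of the 9, went from a mean of 131.4 normalized counts in WT to 32.55 in KO. In KO against WT 1 of the 9 was called higher and 3 lower (44.4%, with 34.5% called among all tested genes). Monocyte markers summed to 1669 to 1693 TPM in WT and 1294 to 1318 in KO, and to 980.0 to 1287 in WTL and 579 to 706 in KOL. Macrophage markers summed to 289 to 306 TPM in WT, 188 to 245 in WTL, 248 to 261 in KO and 211 to 225 in KOL. Neutrophil markers went from 378 to 400.2 in WT to 194 to 226 in KO and from 350 to 443 in WTL to 288 to 337 in KOL. T cell, B cell and NK cell markers summed to at most 3.02 TPM in any library, and eosinophil markers to at most 24.4. The plasmacytoid DC list reached 37.9 TPM after LPS, almost all of it Tcf4, with Siglech and Cox6a2 below 1 TPM in every group mean, and the mast cell and basophil list reached 36.0 TPM, almost all of it Hdc, with 5 of its 7 genes below 1 TPM in every group mean. These TPM were not rescaled between libraries. With LPS the median change of all genes in log2(TPM + 1) was −0.438 in WT and −0.380 in KO, which bears on sums before and after LPS. On normalized counts the median log2 fold change of monocyte markers with LPS was 0.47 in WT and 0.19 in KO. For macrophage markers it was −0.058 in WT and 0.39 in KO. In bulk RNA, fewer cells of a type and less RNA per cell cannot be told apart.

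Ccl17 was the member with the highest level per length in each of the 4 groups, with a mean of 5965 TPM in WT (rank 13 of 12573 genes at or above 1 TPM), 11318 in WTL, 2640 in KO and 7290 in KOL. Ccl22 came next, with 1185, 6554, 631 and 5838 TPM in the same order. The length used for this scaling had a mean of 287 bases for Ccl17 and 1826 for Ccl22 in WT. In normalized counts, which are not divided by length, the mean of Ccl22 exceeded that of Ccl17 in every group. The order of the receptors changed with condition. Ccr7 led them in WT with 319 TPM, in WTL with 602 and in KOL with 695, while Ccr2 led in KO with 386 TPM against 195 for Ccr7. Cx3cr1 was lowest in every group, falling from 9.34 TPM in WT to between 0.880 and 1.51 in the other 3. Neighbours in this order had separate ranges in WT and in KO. In WTL the ranges of Ccr2 (31.3 to 47.7 TPM) and Ccr1 (29.8 to 43.8) overlapped each other, and that of Cx3cl1 (27.5 to 30.5) reached into the range of Ccr1. In KOL, Ccr2, Ccrl2, Ccr1 and Cx3cl1 lay within 63.1 to 111 TPM with overlapping neighbours.

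**Figure D1:**
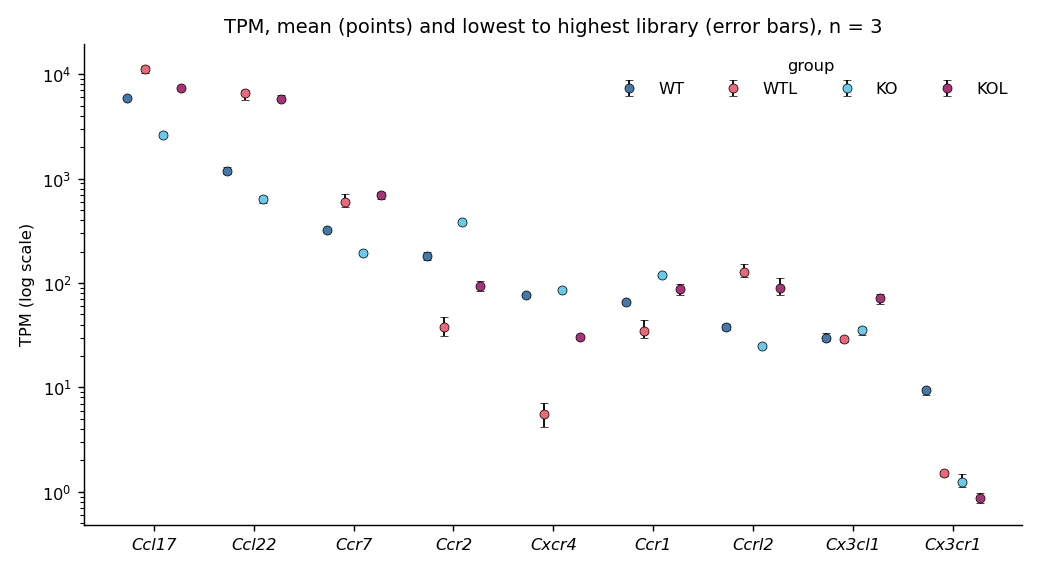
Level of each member per transcript length, on a log axis in TPM, as the mean (point) and the lowest to highest library (error bar) of the 3 libraries in each group. Ccl17 and Ccl22 stand above the receptors in all 4 groups, Ccr2 exceeds Ccr7 in KO only, and Cxcr4 drops to 5.50 TPM in WTL.

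All comparisons below used normalized counts in 1 fit of the 12 libraries, tested with edgeR's quasi-likelihood test and Benjamini-Hochberg adjustment over the 14008 genes. The spread of each gene was estimated over the 4 groups together, although LPS libraries spread more than untreated ones. Standard errors (SE) and p-values may thus be too small for KOL against WTL and too large for KO against WT. A gene was called changed at an adjusted p under 0.05 with a fold above 2 for LPS against untreated cells of either genotype, above 1.3 for KO against WT and above 1.5 for KOL against WTL. The difference between the LPS response of KO cells and that of WT cells (the interaction) carried no fold cutoff. The comparisons share libraries with each other (WT serves both WTL against WT and KO against WT, for example), so their values stand side by side and do not count as independent.

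LPS in WT cells moved 7 of the 9 members past both cutoffs, 4 of them up (Ccr7, Ccrl2, Ccl17 and Ccl22) and 3 down (Ccr2, Cxcr4 and Cx3cr1), where 22.6% of all tested genes were called (12.6% higher and 9.99% lower). In KO cells LPS moved 6, with Ccr7, Ccrl2, Ccl17, Ccl22 and Cx3cl1 up and Ccr2 down, against 28.1% of all genes (15.1% higher and 13% lower). In untreated cells KO and WT differed for 7, with Ccr1 and Ccr2 higher and Ccr7, Ccrl2, Cx3cr1, Ccl17 and Ccl22 lower in KO, against 34.5% of all genes (17.3% higher and 17.2% lower). After LPS, KOL and WTL differed for 6, with Ccr1, Ccr2, Cxcr4 and Cx3cl1 higher and Cx3cr1 and Ccl17 lower in KOL, against 25.0% of all genes (12.5% higher and 12.5% lower). The LPS response itself differed between genotypes for 6 members (Ccr7, Cxcr4, Cx3cr1, Ccl17, Ccl22 and Cx3cl1), against 17.4% of all genes, and each of the 6 lay higher in KO, a direction called for 8.7% of all genes, with 8.75% called in the other. The 3 libraries of one group lay wholly above or below those of the other for all 9 members in WTL against WT and in KO against WT, and for 7 in KOL against WTL and 7 in KOL against KO, which also held for 65.1%, 64.2%, 46.3% and 71.2% of all tested genes. Median log2 fold changes over the 9 members were 0.85, 1.92, −0.61 and 0.23 for WTL against WT, KOL against KO, KO against WT and KOL against WTL, where the medians over all tested genes were −0.018, −0.024, −0.014 and −0.035.

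**Figure D2:**
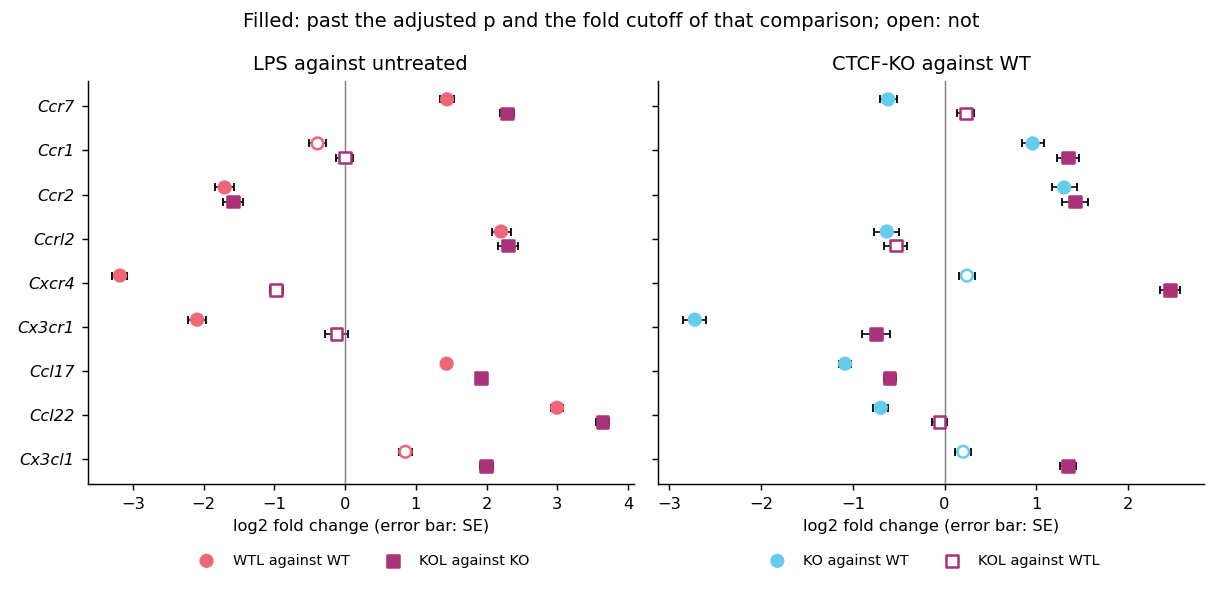
Log2 fold change (x axis, with its standard error) of each member for LPS against untreated cells in WT and KO (left) and for KO against WT with and without LPS (right); filled symbols passed the adjusted p and the fold cutoff of their comparison and open symbols did not. Cxcr4 and Cx3cr1 show the widest gaps between genotypes in their LPS response, and Ccr1 and Ccr2 lie to the right of 0 in both KO comparisons.

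The 3 ligands lie in one cluster on chromosome 8 (mm10; GENCODE M21 annotation), with Ccl22 (ENSMUSG00000031779.3) at chr8:94745590-94751699, Cx3cl1 (ENSMUSG00000031778.13) 20310 bp further on at chr8:94772009-94782427 and Ccl17 (ENSMUSG00000031780.2) another 28026 bp on at chr8:94810453-94812036, all on the plus strand. CCL17 and CCL22 are both ligands of CCR4. Their promoters, from 250 bases before to 50 after the RefSeq start site, are shown because the pair rose with LPS and fell in KO cells together, and because the Ccl17 window held a match to a searched motif. The windows are chr8:94810203-94810502 for Ccl17 and chr8:94745434-94745733 for Ccl22, both read on the plus strand of GRCm38.p6 (the mm10 assembly) from RefSeq, with motif matches in capitals.
Ccl17: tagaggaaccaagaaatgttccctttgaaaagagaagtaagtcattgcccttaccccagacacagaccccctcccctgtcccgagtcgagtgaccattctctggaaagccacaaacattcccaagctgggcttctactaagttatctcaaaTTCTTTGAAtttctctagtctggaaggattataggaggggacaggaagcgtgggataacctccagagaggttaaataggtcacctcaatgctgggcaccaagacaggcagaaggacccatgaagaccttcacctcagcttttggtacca
Ccl22: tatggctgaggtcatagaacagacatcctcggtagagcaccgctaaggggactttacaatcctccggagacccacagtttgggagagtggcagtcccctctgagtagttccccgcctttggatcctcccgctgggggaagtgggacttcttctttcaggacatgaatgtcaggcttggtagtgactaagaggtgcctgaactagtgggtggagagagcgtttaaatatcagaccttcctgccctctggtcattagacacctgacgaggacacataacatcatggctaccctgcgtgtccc
The 4 motifs searched, on both strands, were a kappaB motif (GGG, any 2 bases, TT, any base, CC), a STAT GAS motif (TTCNNNGAA), an AP-1 motif (TGANTCA) and an interferon-stimulated element (GAAA, any 2 bases, GAAA), which 4.8%, 8.29%, 7.81% and 3.43% of 32817 mouse promoter windows held at least once. Among 10 windows of 8 members, matches stood in Ccl17 (STAT GAS, from base −99 relative to the start site) and in Ccrl2 (kappaB, from base −56), with no second motif overlapping either. The Ccl22 window above held none of these letters. A match is a run of letters and was not tested for binding.

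Ccl17 stood at 16747, 18088 and 18820 normalized counts in WT and at 48858, 46955 and 49244 in WTL. In KO it stood at 8485, 8788 and 8038, and in KOL at 31334, 31566 and 32844. The 4 groups did not overlap, and both KO groups lay below the WT group of the same treatment. LPS raised Ccl17 by 1.43 on the log2 scale in WT (SE 0.067, adjusted p = 1.95e-10) and by 1.92 in KO (SE 0.068, adjusted p = 8.31e-12). Ccl17 was lower in KO than in WT cells, with a log2 fold change of −1.08 in untreated cells (SE 0.067, adjusted p = 1.09e-08) and −0.60 after LPS (SE 0.066, adjusted p = 4.56e-06). The last value passed its fold cutoff narrowly, at 1.515-fold, and it ran from −0.57 to −0.62 when single libraries were left out. It missed the cutoff without WT replicate 1, 2 or 3 or without KOL replicate 1 (log2 fold change −0.57 without each WT library, −0.58 without the KOL library). The LPS response was larger in KO by 0.48 (SE 0.093, adjusted p = 0.00275).

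Ccl22 held 22217, 22464 and 22924 normalized counts in WT against 164164, 175060.3 and 200200.4 in WTL. KO libraries had 13966, 14699 and 13077, and KOL libraries 186432, 162894 and 170446. LPS thus lifted Ccl22 the most of the members that rose, by 3.00 in WT (SE 0.088, adjusted p = 1.52e-12) and by 3.64 in KO (SE 0.091, adjusted p = 2.31e-13). Before LPS, KO lay below WT at −0.70 (SE 0.083, adjusted p = 8.79e-06). After LPS the ranges of KOL and WTL overlapped, and the log2 difference of −0.054 had an SE of 0.082 and an adjusted p of 0.629. The difference between the responses was 0.64 (SE 0.12, adjusted p = 0.00178).

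Per transcript length, Ccl17 exceeded Ccl22 in each library, but by an amount that changed with LPS. The ratio of their TPM was 4.61, 5.14 and 5.42 in WT and 4.20, 4.09 and 4.26 in KO. The WTL libraries had ratios of 1.72, 1.82 and 1.67 and the KOL libraries 1.16, 1.29 and 1.31, so that each genotype lay lower after LPS with no overlap.

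Cx3cl1 encodes fractalkine, a chemokine tethered to the membrane that is the ligand of CX3CR1. It gave 623, 667 and 633 normalized counts in WT, 1016, 1233 and 1220 in WTL, 775, 699 and 738 in KO, and 3108, 3029 and 2691 in KOL. The KOL libraries stood apart, the lowest of them far above the highest WTL library. In WT cells the LPS difference of 0.85 (SE 0.089, adjusted p = 1.19e-06) stayed under the fold cutoff, whereas in KO cells the rise was 2.00 (SE 0.089, adjusted p = 9.96e-11). KOL exceeded WTL by 1.35 (SE 0.087, adjusted p = 2.11e-08), while KO against WT, at 0.20 (SE 0.089), had an adjusted p of 0.0782. The response differed between genotypes by 1.14 (SE 0.12, adjusted p = 3.38e-05).

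The size of the LPS response of Cx3cl1 depended on the scale in both genotypes. On TPM without rescaling, tested with limma on log2(TPM + 1), WTL against WT came to −0.026 (adjusted p = 0.839), on a scale where the median of all genes stood at −0.438, and after TMM scaling of the TPM, an alternative added after the data were seen, it came to 0.46 (adjusted p = 0.00227). KOL against KO came to 1.0064 without rescaling (adjusted p = 6.90e-06), with the median of all genes at −0.380, and to 1.42 after TMM scaling (adjusted p = 3.21e-07). TPM divides by the effective length that RSEM estimated from the mix of transcripts, and for Cx3cl1 that length was 2139, 1909 and 2173 bases in WT and 1815, 1967 and 1820 in KO. With LPS it came to 2350, 2816 and 2732 bases in WTL libraries and 2765, 2496 and 2731 in KOL libraries, so the untreated and LPS libraries did not overlap. The mean length of Cx3cl1 in WTL was 1.269 times and in KOL 1.285 times that in WT, while group means of the other 8 members lay between 0.928 and 1.08 times their WT mean.

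**Figure D3:**
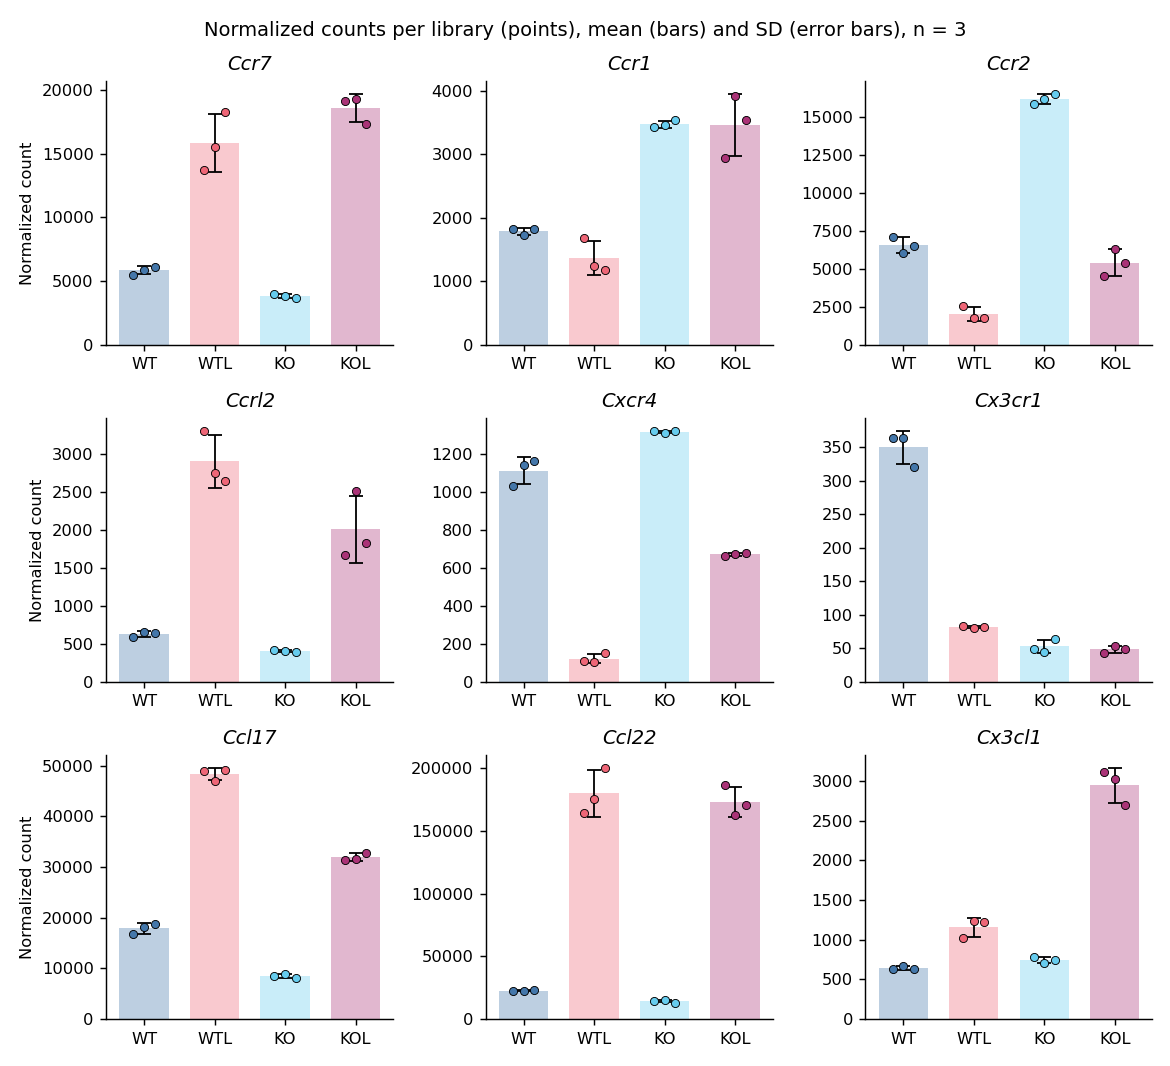
Normalized counts (y axis, from 0, with its own scale in each panel) of the 9 members in every library (points), with the mean (bar) and SD (error bar) of the 3 libraries in each group. Ccl22 reaches like heights in WTL and KOL, Cx3cl1 is high in KOL, Cxcr4 keeps a level of 670 in KOL against 122 in WTL, and Cx3cr1 is high in WT and at 81.9 or below in the other group means.

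Ccr7 (ENSMUSG00000037944.8, chr11:99144196-99155077, minus strand) is the receptor for CCL19 and CCL21 and the main guide of mature DCs into lymph nodes. Its normalized counts were 5506, 5899 and 6124 in WT and 13770, 15524 and 18282 in WTL. KO libraries had 3970, 3846 and 3630 and KOL libraries 19187, 19345 and 17334. Before LPS the KO libraries lay below the WT libraries, and after LPS the ranges of both genotypes overlapped. LPS raised Ccr7 by 1.44 in WT (SE 0.095, adjusted p = 8.80e-09) and by 2.29 in KO (SE 0.098, adjusted p = 6.44e-11), and these responses differed by 0.85 (SE 0.13, adjusted p = 0.000625). KO was lower than WT at −0.61 (SE 0.094, adjusted p = 9.81e-05), whereas KOL against WTL, at 0.23 (SE 0.093), had an adjusted p of 0.0578.

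Ccrl2 (ENSMUSG00000043953.12, chr9:111054486-111057519, minus strand) is an atypical receptor that binds chemerin without signalling through G proteins. Of its 3 RefSeq promoter windows, the one whose start site lies 1 base from the GENCODE gene start, chr9:111057469-111057768 read on the minus strand of GRCm38.p6, is shown for its kappaB match, in capitals.
Ccrl2: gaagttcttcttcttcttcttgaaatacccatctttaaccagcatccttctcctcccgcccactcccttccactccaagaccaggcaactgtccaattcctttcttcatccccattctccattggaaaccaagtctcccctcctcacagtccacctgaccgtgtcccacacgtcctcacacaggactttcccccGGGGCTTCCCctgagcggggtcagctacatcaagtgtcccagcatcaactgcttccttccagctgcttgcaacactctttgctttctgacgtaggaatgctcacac
The gene held 587, 661 and 643 normalized counts in WT and 3314, 2756 and 2656 in WTL. KO libraries had 424, 403 and 396, and KOL libraries 1680, 2520 and 1831. Each KO group lay below the WT group of the same treatment, without overlap. The LPS rise was 2.21 in WT (SE 0.13, adjusted p = 3.59e-09) and 2.30 in KO (SE 0.14, adjusted p = 2.50e-09). The difference between these rises, 0.097 (SE 0.19), had an adjusted p of 0.776. KO lay below WT at −0.63 (SE 0.14, adjusted p = 0.00175). KOL against WTL gave −0.53 (SE 0.13, adjusted p = 0.00361), which at 1.45-fold missed the fold cutoff of that comparison. It passed the cutoff without WTL replicate 3 (−0.59) or without KOL replicate 2 (−0.73), the KOL library with the highest level.

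Ccr1 and Ccr2 are receptors of inflammatory chemokines, CCR1 for CCL3, CCL5 and related ligands and CCR2 for CCL2 and CCL7, and CCR2 is the receptor by which monocytes leave bone marrow. They lie 133258 bp apart on chromosome 9, Ccr1 (ENSMUSG00000025804.5) at chr9:123962124-123968692 on the minus strand and Ccr2 (ENSMUSG00000049103.14) at chr9:124101950-124113557 on the plus strand. The expected counts of Ccr2 were fractional in all 12 libraries, so RSEM, the authors' counting tool, assigned it shares of reads that also match elsewhere, and its levels and fold changes are uncertain to the extent of that division. The other 8 members had whole counts, within 0.005, in every library.

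Ccr1 counted 1818, 1728 and 1821 in WT, 1676, 1238 and 1185 in WTL, 3439, 3457 and 3543 in KO, and 2941, 3917 and 3546 in KOL. Every KO and KOL library stood above every WT and WTL library. Ccr1 was higher in KO than in WT cells, by 0.96 in untreated cells (SE 0.12, adjusted p = 1.63e-05) and by 1.35 after LPS (SE 0.12, adjusted p = 6.93e-07). For LPS against untreated cells the log2 fold change was −0.39 in WT (SE 0.12, adjusted p = 0.0128), under the fold cutoff, and −0.0051 in KO (SE 0.12, adjusted p = 0.972). The WT value had an adjusted p of 0.0623 without WTL replicate 2 and 0.0632 without WTL replicate 3. The responses differed by 0.39 (SE 0.17, adjusted p = 0.144), and by 0.56 (adjusted p = 0.00969) without WTL replicate 1, the WTL library with the highest level.

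Ccr2 had 7108, 6071 and 6509 normalized counts in WT and 2519, 1782 and 1749 in WTL. In KO it had 15855, 16169 and 16559, and in KOL 4520, 6302 and 5383. The KO libraries stood above all others, and the KOL range overlapped that of untreated WT. LPS lowered Ccr2 in both genotypes, with log2 fold changes of −1.70 in WT (SE 0.14, adjusted p = 9.03e-08) and −1.58 in KO (SE 0.14, adjusted p = 1.45e-07), and the difference between them was 0.12 (SE 0.19, adjusted p = 0.724). KO exceeded WT by 1.303 (SE 0.14, adjusted p = 2.50e-06) and KOL exceeded WTL by 1.42 (SE 0.14, adjusted p = 1.31e-06).

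Among the monocyte markers, Ly6c2 (1.72) and Csf1r (0.73) rose and F13a1 (−3.84), Hp (−2.19) and Chil3 (−1.35) fell in KO against WT, with 3 of the 8 not called. Of 7 tested neutrophil markers, 6 fell in KO against WT, with a list median of −1.68. Called there were 62.5% of the monocyte and 85.7% of the tested neutrophil markers, against 34.5% of all tested genes. The part of these cells in the Ccr1 and Ccr2 values was not tested.

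Cxcr4 (ENSMUSG00000045382.6, chr1:128588199-128592293, minus strand) is the receptor for CXCL12, which holds haematopoietic cells in bone marrow. Its normalized counts were 1029.7, 1138 and 1163 in WT and 111, 105 and 149 in WTL. KO libraries stood at 1318, 1309.6 and 1318, and KOL libraries at 661, 672 and 676. The genotypes were near each other before LPS and parted after it, with every KOL library well above every WTL library. In WT the log2 fold change with LPS was −3.18 (SE 0.11, adjusted p = 5.57e-12), the largest fall among the members. In KO it was −0.97 (SE 0.090, adjusted p = 2.92e-07), which at 1.96-fold stayed just under the fold cutoff of 2. On TPM the KO value came to −1.48 with limma on log2(TPM + 1) and passed that cutoff. KOL exceeded WTL by 2.45 (SE 0.11, adjusted p = 5.31e-10), and the responses differed by 2.21 (SE 0.14, adjusted p = 4.05e-07), the largest interaction among the members. KO against WT was 0.24 (SE 0.088, adjusted p = 0.0354), below the fold cutoff.

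Cx3cr1 (ENSMUSG00000052336.7, chr9:119901616-120069879, minus strand), the fractalkine receptor, marks monocytes and tissue macrophages as well as some DCs. It counted 364, 364 and 321 in WT and 83.6, 80.2 and 81.9 in WTL. KO libraries had 49.4, 45.1 and 63.9 and KOL libraries 43.0, 53.8 and 49.1. Untreated WT libraries thus stood alone, with KO and KOL overlapping at the bottom. LPS in WT lowered it, at −2.09 (SE 0.12, adjusted p = 2.40e-09), and it was lower in KO than in WT, at −2.72 (SE 0.13, adjusted p = 5.98e-10). In KO, LPS left a difference of −0.12 (SE 0.16, adjusted p = 0.515), and the interaction was 1.97 (SE 0.20, adjusted p = 2.19e-05). KOL was lower than WTL at −0.75 (SE 0.15, adjusted p = 0.00108), a call that was lost with limma on log2(TPM + 1), where it was −0.42. Its annotated span overlaps 9 other genes, whereas its expected counts were whole in all 12 libraries. Of the 9 macrophage markers, Mertk (−1.16), Adgre1 (−0.81) and Fcgr1 (−1.93) also fell in KO against WT, while C1qa (1.27), C1qc (0.81) and Cd163 (1.37) rose and the other 3 were not called. Called macrophage markers were 66.7% of the list, against 34.5% of all tested genes. The part of such cells in the Cx3cr1 values was not tested. The other 8 members overlap no annotated gene.

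The annotated neighbours within 250 kb were read beside the members of the clusters on chromosomes 8 and 9. Around the 3 ligands 16 other genes were tested. In KO against WT, Arl2bp rose (0.53) and 5 fell, namely Adgrg1 (−2.85), Adgrg5 (−1.34), Cpne2 (−0.59) and the pseudogenes Gnb1-ps3 (−2.29) and Gm7418 (−1.78), with Ciapin1, which lies 7768 bp from Ccl17, at 0.15 (adjusted p = 0.129). In KOL against WTL, Arl2bp (1.36) and Dok4 (0.69) rose and Adgrg1 (−1.65) and Adgrg5 (−1.36) fell. Among all tested genes 34.5% were called in KO against WT and 25.0% in KOL against WTL. Cx3cl1 lies between Ccl22 and Ccl17 and did not share their direction in KO against WT. For the interaction, called for all 3 ligands as higher in KO, 4 of the 16 neighbours were called higher and 1 lower. Of all tested genes 8.7% were called higher and 8.75% lower for it.

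Of 7 other tested genes read around Ccr1 and Ccr2, the receptors Ccr9 (2.38) and Ccr3 (1.68, at a mean of 2.02 normalized counts in WT and 6.81 in KO) rose in KO against WT and none fell. Among all tested genes 17.3% were called higher and 17.2% lower in that comparison. Xcr1, the receptor by which cross-presenting DCs are known, lies 100095 bp from Ccr1 and had a log2 fold change of 0.23 (adjusted p = 0.501) there, but rose with LPS by 3.25 in WT and 3.31 in KO. None of the 3 tested neighbours of Cxcr4 was called in any of the 4 comparisons or in the interaction. In KO against WT, 3 of the 8 tested neighbours of Ccr7 rose and 2 fell. Near Ccrl2, 2 of 7 rose and 1 fell, and near Cx3cr1, 3 of 9 fell and none rose.

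**Figure D4:**
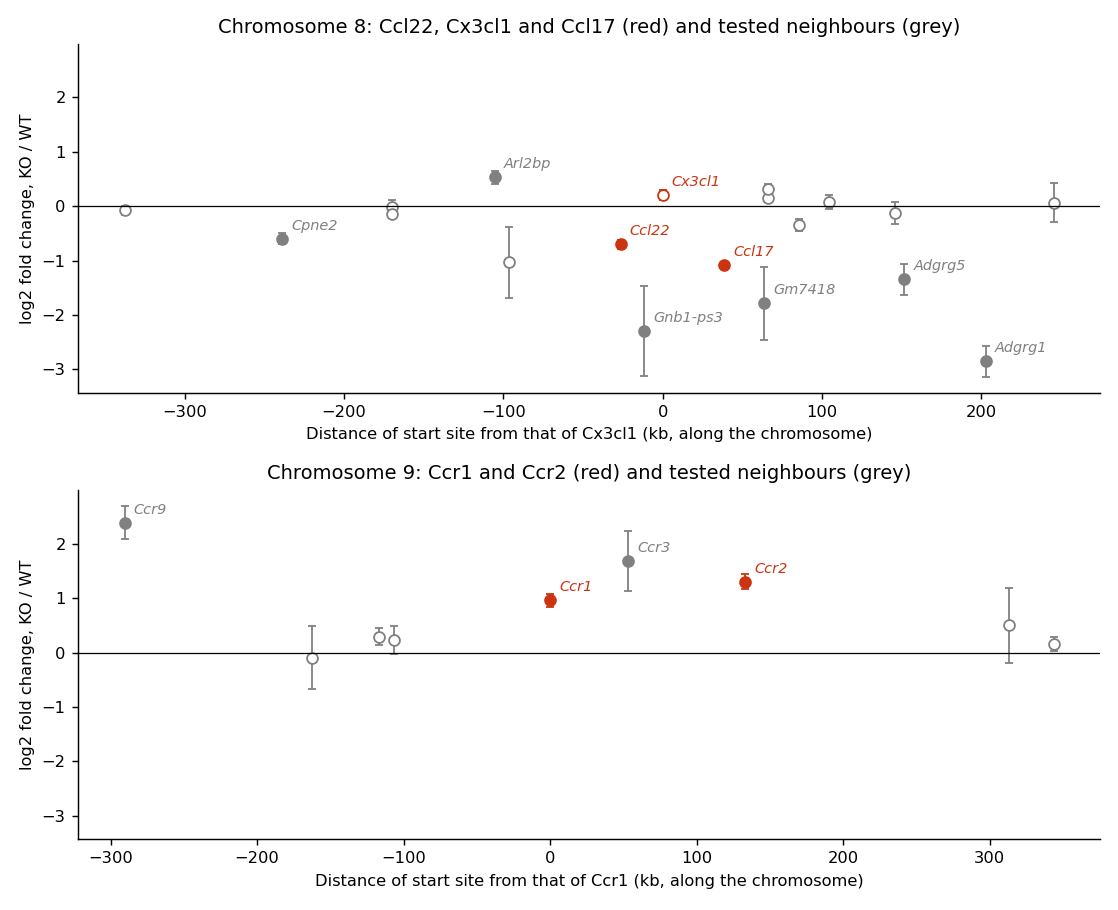
Log2 fold change of KO against WT (y axis, with its standard error) for members (red) and other tested genes (grey) against the distance in kb between start sites, for the ligand cluster (top) and the Ccr1 and Ccr2 cluster (bottom); filled points were called. Ccl22 and Ccl17 lie below 0 on either side of Cx3cl1, and the called genes of the receptor cluster lie above 0. Of all tested genes 34.5% were called in this comparison.

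Further chemokine receptors were mostly low. Of 19 others listed, 9 passed the filter on low counts. In KO against WT 4 of the 9 rose and none fell, with Ccr9 going from 21.8 ± 1.11 to 115 ± 7.59 normalized counts (SD, n = 3). With LPS 3 rose and 1 fell in WT, while in KO 4 rose and 2 fell. Called were 44.4% of the 9 in KO against WT, where 34.5% of all tested genes were called. For LPS the shares were 44.4% in WT and 66.7% in KO, against 22.6% and 28.1% of all tested genes. Cmklr1, the signalling receptor for chemerin, stood at 1164 ± 23.9 in WT, 1129 ± 243 in WTL, 1465 ± 41.6 in KO and 580.0 ± 144 in KOL. It fell with LPS in KO (−1.34, adjusted p = 3.55e-06) and was lower in KOL than in WTL (−0.96).

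Of 12 listed ligands of the member receptors, 6 were tested. The CCR7 ligands Ccl19 and Ccl21a, the CXCR4 ligand Cxcl12 and the chemerin gene Rarres2 were among the 6 not tested, with group means of at most 5.60 normalized counts. Among the 6, 5 rose with LPS in each genotype and none fell, with Ccl3, a ligand of CCR1, going from 631 ± 20.8 to 11875 ± 291 in WT and from 671 ± 21.9 to 15717 ± 925 in KO. In KO against WT the CCR2 ligands Ccl2 (−1.71) and Ccl7 (−2.28) fell, and Ccl6 (0.65) and Ccl5 (0.61) rose. The LPS response was larger in KO for 4 of the 6, among them Ccl7 (2.50) and Ccl2 (1.84), and smaller for 1. After LPS, Ccl9 was higher in KOL than in WTL (1.03), and Ccl2, at 975 ± 147 in WTL and 1070 ± 181 in KOL, was not called (0.13, adjusted p = 0.415). Called shares of the 6 were 83.3% (WTL against WT), 83.3% (KOL against KO), 66.7% (KO against WT), 16.7% (KOL against WTL) and 83.3% (interaction). Over all tested genes, in the same order, they were 22.6%, 28.1%, 34.5%, 25.0% and 17.4%.

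Of 34 genes that carry or limit chemokine receptor signals, all tested, 7 were called with LPS in WT, 12 in KO against WT, 5 in KOL against WTL and 9 with LPS in KO. These are 20.6%, 35.3%, 14.7% and 26.5% of the list, against 22.6%, 34.5%, 25.0% and 28.1% of all tested genes. Among regulators of G protein signalling, Rgs1 rose with LPS by 2.41 in WT and 3.18 in KO and fell by 1.31 on the log2 scale in KO against WT. Rgs18 went from 32.4 ± 2.21 in WT to 17.8 ± 5.91 in WTL, and from 40.1 ± 4.78 in KO to 184 ± 27.1 in KOL, a gap of 3.39 between KOL and WTL (adjusted p = 1.15e-08). Rgs2 was likewise higher in KOL than in WTL (1.71), whereas Rgs16 was lower (−1.98, adjusted p = 2.01e-05). Arrb1, which encodes a beta-arrestin that uncouples receptors, fell with LPS in WT (−1.93) and in KO (−2.40). Arrb2, another beta-arrestin gene of the list, changed less with LPS, at −0.75 in WT and −0.33 in KO, under the fold cutoff in both. Rac2, a GTPase of leukocyte movement, was higher in KO than in WT (1.14).

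Genes of DC maturation and migration, 25 listed and all tested, include costimulatory molecules and the cytoskeletal gene Fscn1. LPS raised 15 in WT and 20 in KO, and lowered none. In KO against WT 14 fell and 1 rose, with a median of −0.51 (−0.014 over all tested genes). Serpinb6b (−3.34), Cd200 (−2.50) and Tbc1d4 (−1.54) were among those that fell, and Fscn1, whose protein bundles actin in the dendrites of mature DCs, was the 1 that rose (0.98). After LPS 8 were lower and 4 higher in KOL than in WTL, with a median of −0.0024. The LPS response was larger in KO for 14 and smaller for 1. Called shares of the 25 were 60.0% (WTL against WT), 80.0% (KOL against KO), 60.0% (KO against WT), 48.0% (KOL against WTL) and 60.0% (interaction). Over all tested genes, in the same order, they were 22.6%, 28.1%, 34.5%, 25.0% and 17.4%.

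**Figure D5:**
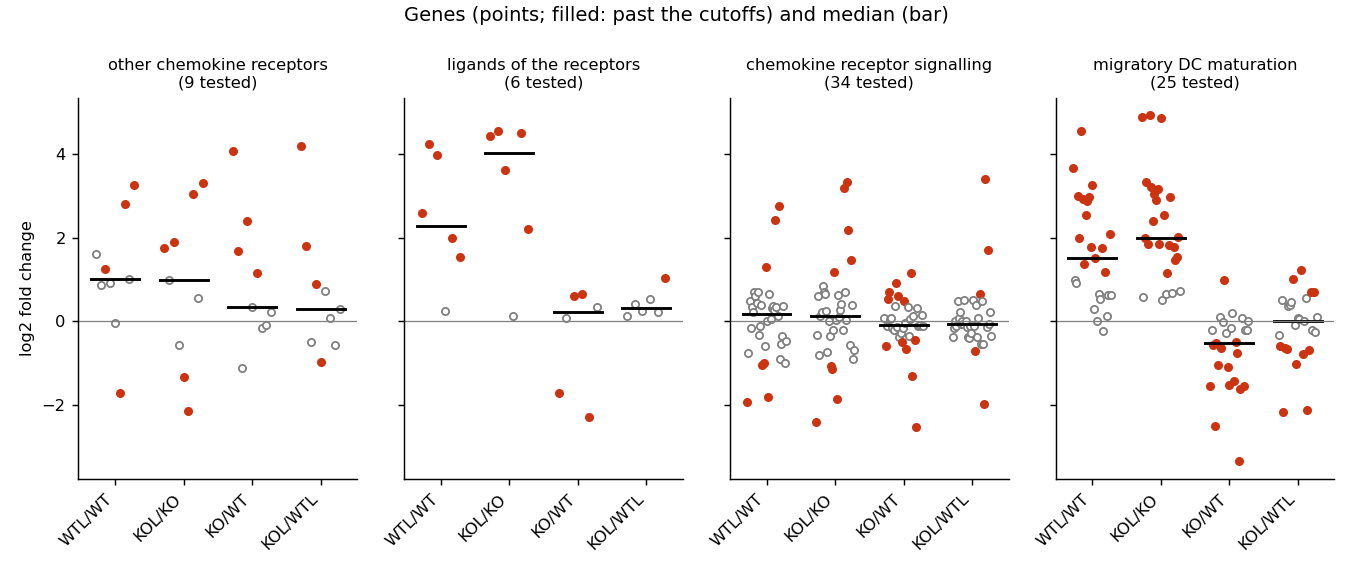
Log2 fold change (y axis) of each tested gene in 4 lists of related genes, by comparison (x axis), with called genes filled and the median as a bar. The median of the maturation genes lies above 0 with LPS in both genotypes (1.51 in WT and 1.99 in KO). It is −0.51 in KO against WT and −0.0024 in KOL against WTL.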

How the data were processed

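RNA from 12 BMDC cultures (4 groups of 3) was sequenced by the authors. Per the labels, ribosomal RNA was depleted and libraries were made with a TruSeq RNA kit, while the study's methods name a stranded poly(A) kit, so the kit is uncertain. The submitters' processing notes name STAR 2.5.1, RSEM and mm10; the strand setting is not given in the sources used here. The authors deposited RSEM expected counts per gene, not normalized, and TPM per gene (transcripts scaled to length and library). Library totals were between 12769773 and 16586334 counts, and counting precision followed from these.

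Expected counts were rounded to whole numbers, filtered by group (filterByExpr, 14008 genes kept), scaled by TMM and fitted over all 12 libraries in edgeR 4.0.16 (R 4.3.3) with the quasi-likelihood test and Benjamini-Hochberg adjustment. Fold cutoffs were 2 (WTL against WT), 1.3 (KO against WT) and 1.5 (KOL against WTL), as in the study, and the LPS cutoff of 2 was also used for KOL against KO. Alternatives were DESeq2 1.42.0, its size factors in edgeR, other filters, the 6 compared libraries alone, replicate number as a block, TPM tested by limma 3.58.1 with pseudocounts of 1 or 0.1, and each library left out. TMM-scaled TPM was added after the data were seen. The procedure was tested on simulated data. Genes named besides the members and Ctcf were, by rule, the 2 best correlated with each member, the 2 largest called rises and falls in each list and comparison with a mean of at least 50 normalized counts, and neighbours within 250 kb; further list and marker genes named (Ccl7, Tbc1d4 and the cell type markers, for example) were chosen after their values were seen. The 9 members and all gene lists were chosen with earlier results of these data known. Where replicates share technical steps, p-values measure the spread between these libraries. Gene positions came from GENCODE M21 (mm10), matched for 54587 gene identifiers with version and 55154 without, and promoters from RefSeq (GRCm38.p6) for 8 of the 9 members. Amino acid sequences were not used here. One result is not reported here, and the gene lists and neighbour counts leave it out.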

Additional observations from a re-analysis of the deposited data

Results flagged for a closer look

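For 6 members the LPS response differed between genotypes by the interaction test (edgeR's quasi-likelihood test, Benjamini-Hochberg adjustment over 14008 genes, 3 libraries in each of 4 groups). Cxcr4 had the largest difference, with its LPS response 2.21 higher on the log2 scale in KO than in WT (SE 0.14, adjusted p = 4.05e-07), from a fall to 122 normalized counts in WTL and to 670 in KOL. Cx3cr1 followed with 1.97 (SE 0.20, adjusted p = 2.19e-05), its untreated level being 349 in WT and 52.8 in KO. With LPS it stood at 81.9 in WTL and 48.65 in KOL. KO cells thus began at a low level and showed no called LPS change (−0.12, adjusted p = 0.515). The response of Cx3cl1 was 1.14 higher in KO (SE 0.12, adjusted p = 3.38e-05), with 1156 normalized counts in WTL and 2943 in KOL. The responses of Ccr7 (0.85, adjusted p = 0.000625), Ccl22 (0.64, adjusted p = 0.00178) and Ccl17 (0.48, adjusted p = 0.00275) were also higher in KO, each from a lower untreated level in KO than in WT. After LPS the normalized counts of Ccr7 and Ccl22 in KOL overlapped those of WTL, while those of Ccl17 stayed lower in KOL.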

How the results depend on the processing

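The count of members called in each of the 5 comparisons stayed within 1.5 times its value under every alternative run. Of 396 values under processing alternatives 382 stayed on their side of the cutoffs, 8 lost a call, 4 gained one and 2 reversed. With single libraries left out 533 of 540 stayed on their side, 4 lost a call and 3 gained one. A change of sign counted as a reversal only for a value that was called or had a main adjusted p under 0.05. Values near 0 could change sign and still count as kept. Ccl22 in KOL against WTL, for example, ran from −0.115 to 0.031 with single libraries left out. The 2 reversals were Cx3cl1 in WTL against WT on TPM without rescaling, at −0.026 with a pseudocount of 1 and −0.026 with 0.1, where the median of all genes moved to −0.438 and −0.515. On that scale Ccr7 (0.90) and Ccl17 (0.92) in WTL against WT missed the fold cutoff, and Cxcr4 in KOL against KO passed it (−1.48, and −1.06 with TMM-scaled TPM, added after the data were seen). The call of Ccl17 in KOL against WTL was also lost with at least 10 counts required in every library (−0.58) and with the 6 libraries alone (−0.57). The Ccr1 interaction passed without a filter on low counts (0.40, adjusted p = 0.0263). With single libraries left out, members called ranged from 5 to 7 in KOL against WTL and from 6 to 7 for the interaction, and the other counts did not move. The 18 correlations between libraries of the same replicate number, as deviations from their group means, ran from −0.286 to 0.112, with 1 above 0.1. They show no strong effect shared by replicate number. With 3 libraries per group they cannot tell whether libraries of the same number share a mouse or culture. Fitted with a replicate block, the counts were 7 for WTL against WT, 7 for KO against WT, 6 for KOL against WTL, 6 for KOL against KO and 6 for the interaction, and this block changed no call of a member. Depth limits Cx3cr1 the most, with 40 to 77 expected counts per library outside untreated WT.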

Other observations

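The genes whose normalized counts ran closest to each member over the 12 libraries, out of 9338 tested genes with a mean of at least 100.0, are given as a description, since all 12 libraries share the same 4 groups and a group difference alone yields a high correlation. For Ccr2 they were Impact (Pearson's r = 0.995) and Cd84 (0.994), the latter a receptor of the SLAM family. For Ccr7 they were Inpp5b (0.995) and Cd82 (0.995), a tetraspanin. Ccrl2 ran with Gm49342 (0.998) and Cflar (0.998), an inhibitor of caspase-8, Ccl22 with Usp18 (0.999) and the survival gene Bcl2l1 (0.998), and Ccl17 with Slfn1 (0.998) and Clec2d (0.997). The nearest to Ccr1 were Prkci (0.982) and Jazf1 (0.982), to Cxcr4 Gpr146 (0.985) and Trim7 (0.982), and to Cx3cl1 Nrg1 (0.993) and Chp1 (0.993). Cx3cr1 had the lowest best match, Strip2 (0.967), followed by Smarca2 (0.958).

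The balance between a receptor of migration and one of recruitment can be read per length as the ratio of Ccr7 to Ccr2 TPM. It was 1.55, 1.92 and 1.86 in WT and 0.542, 0.509 and 0.467 in KO, and LPS libraries had 11.3, 17.8 and 21.0 (WTL) and 8.85, 6.81 and 6.65 (KOL). KO libraries lay below the WT libraries of the same treatment without overlap, and LPS raised the ratio in both genotypes. The ratio of Ccr1 to Ccr2 TPM was 0.364 ± 0.018 (SD, n = 3) in WT and 0.310 ± 0.0049 in KO, without overlap, and after LPS, with overlapping libraries, it was 0.929 ± 0.021 in WTL and 0.916 ± 0.0072 in KOL.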
